A study of Mus musculus with 20 samples.

Results

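The loss of Neu3 alone was measured in mouse brain by comparing 5 libraries from Neu3 knockouts (Neu3KO) with 5 from wild type (WT), which were 10 of the 20 libraries of the series. They were chosen by the genotype in their labels. The other 10 libraries came from knockouts of Glb1 (Glb1KO) and of Glb1 and Neu3 together (DKO), and are used here where Neu3 loss with and without Glb1 is set side by side. WT mice carried neither knockout, and the Neu3KO mice kept Glb1. RNA came from 1 hemisphere of each brain and was sequenced after selection of polyadenylated transcripts. The sources used here do not give age, strain, the part of Neu3 that was deleted or whether the knockout covers all cells. No treatment was named. Each library had its own identifier and 1 hemisphere was used per brain, which points to 5 brains per group, though the labels do not state the number of mice. The p-values measured the spread between libraries, which may in part be technical. In the fit of all genes that spread was estimated over all 20 libraries, Glb1KO and DKO included.

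Sialidases remove sialic acid from glycans, and mammals have 4 of them. Neu1 acts in the lysosome and Neu2 in the cytosol, Neu3 sits at the plasma membrane and prefers gangliosides, and Neu4 is found on internal membranes. Gangliosides are sialylated glycolipids that are abundant in neuronal membranes, where Neu3 trims complex gangliosides towards GM1, the lipid that beta-galactosidase (Glb1) then breaks down in the lysosome.

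No gene passed the test between Neu3KO and WT. Of 18336 genes tested, 0 (0%) had an adjusted p under 0.05 in edgeR's quasi-likelihood F test with Benjamini-Hochberg adjustment over all of them, and the smallest adjusted p was 0.116. At an unadjusted p under 0.05 there were 1105 genes (6.03%), of which 554 were higher (3.02%) and 551 lower (3.01%) in Neu3KO. DESeq2 called 2 genes, Plcxd2 and Napb, and limma-voom called 0, while edgeR without the filter on low counts called 26 of 36698. An edgeR fit of the 10 libraries alone called 3 of 17312, Ndn, Plcxd2 and Nr4a1. The median log2 fold change was -0.00018, and 90% of the estimates lay between -0.33 and 0.36. Only 15 of 15846 genes with a mean of at least 1 count per 1000000 reads (CPM) had an estimate of 2-fold or more in either direction.

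The intervals show which changes these libraries exclude gene by gene. For 16036 genes (87.5%) the 95% interval of the fold change lay inside 2-fold in both directions, for 13076 (71.3%) inside 1.5-fold. For 9187 genes (50.1%) it excluded a rise of 25% or more and a fall of 20% or more. The median distance from the estimate to an end of the interval was 0.22 on the log2 scale, or 1.17-fold. With intervals widened to hold for all genes at once, 11437 genes (62.4%) still lay inside 2-fold and 7258 (39.6%) inside 1.5-fold. In the other direction, no interval lay wholly beyond 2-fold and 11 lay beyond 1.5-fold, and none of the 11 was called.

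The bound depended on how much of a transcript was sequenced. Among 2460 genes over 100 CPM, 99.8% lay inside 2-fold and 95% inside the narrower bound of a 25% rise and a 20% fall. Among the 8049 genes from 10 to 100 CPM the shares were 99.8% and 81.3%. For 5337 genes from 1 to 10 CPM they were 91.5% and 5.81%, and for 2490 genes under 1 CPM they were 26.7% and 0%. A 2-fold change was thus excluded for nearly all genes above 10 CPM, whereas for most genes under 1 CPM it was not excluded. The 24 genes above 10 CPM that were not bounded inside 2-fold included Ndn, the haemoglobin genes Hbb-bs and Hba-a1, the activity-induced genes Fos and Egr2, the glycine transport and receptor genes Slc6a5 and Glra1, and genes with near-identical copies such as Rps27a and Gapdh, whose reads could be split between copies. These were chosen after their values were seen.

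**Figure D1:**
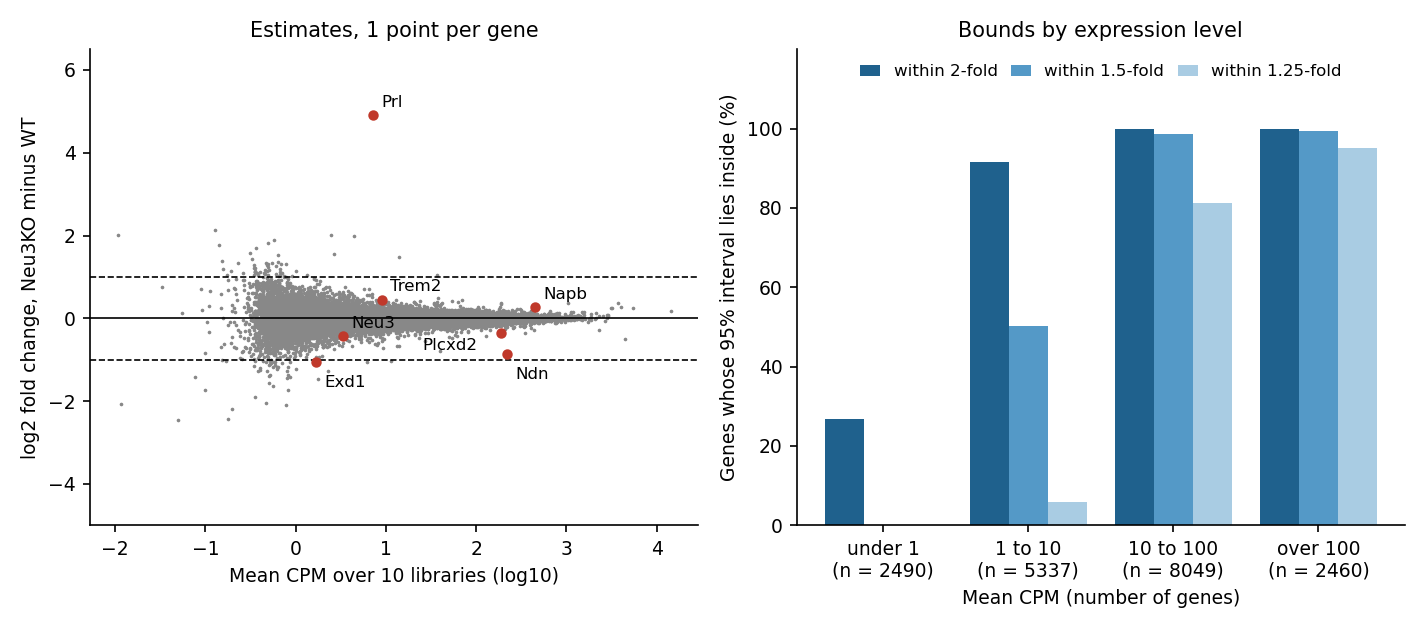
Left, log2 fold change (Neu3KO minus WT) against mean CPM over the 10 libraries on a log10 scale, with 1 point per gene, dashed lines at 2-fold and named genes in red (1 gene without reads in these libraries is not drawn). Right, percentage of genes whose 95% interval lies inside each of 3 bounds, by mean CPM (the narrowest is a 25% rise and 20% fall). The estimates narrow around 0 as expression rises, and 99.8% of genes over 100 CPM lie inside 2-fold.

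The libraries differed in ways that genotype did not explain. Total counts ran from 16649633 to 19212266 in WT and from 15162311 to 25145806 in Neu3KO. WT replicate 1 stood apart: it lay at -54.5 on the first principal component (19.1% of the variance of these 10 libraries) against 1.46 to 12.5 for the others. Its mitochondrial share was 2.45% against 3.74% to 4.86%, and CT010467.1 and Gm23935 together took 1.86% of its reads against 0.364% to 0.755%. The identifiers in the labels began with E in all WT libraries and in Neu3KO replicate 1, and with W in Neu3KO replicates 2 to 5, with no meaning given. Letter and genotype were therefore nearly confounded in this comparison. No library had reads of the Y-linked genes Ddx3y, Uty, Kdm5d and Eif2s3y.

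Neu3 itself was the check of the label. Neu3 (ENSMUSG00000035239) lies on the minus strand of GRCm38 chromosome 7, from 99811439 to 99828417. The bases before its annotated start are shown because its reads remained in the knockout. They are 250 bases of RefSeq's GRCm38.p6 promoter table, chr7:99828418-99828667, minus strand, with the single match to the GC box GGGCGG in capitals.
Neu3: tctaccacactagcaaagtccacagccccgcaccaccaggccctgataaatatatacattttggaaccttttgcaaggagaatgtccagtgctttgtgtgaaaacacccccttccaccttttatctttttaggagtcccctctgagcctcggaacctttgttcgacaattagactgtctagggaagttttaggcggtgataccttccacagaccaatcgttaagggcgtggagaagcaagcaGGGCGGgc
Searched on both strands, GGGCGG occurred in 32.7% of the 32851 promoters of that length in the table, so the match is a description of this window and not a site.

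In WT, Neu3 was at 2.32, 4.47, 3.69, 5.53 and 3.23 CPM in replicates 1 to 5, from 44 to 91 reads. In Neu3KO it was at 2.45, 2.84, 3.30, 3.26 and 2.48 CPM, from 39 to 61 reads. WT replicates 2, 3 and 4 were above every Neu3KO library, but WT replicates 1 and 5 were not, so the groups overlapped. The mean was 3.85 ± 1.22 CPM in WT (SD, n = 5) and 2.86 ± 0.409 in Neu3KO (SD, n = 5), or 74.4% of WT, with a two-sided exact permutation p = 0.151, where 0.00794 is the smallest possible. In the fit of all genes the log2 fold change was -0.43 (standard error, SE, 0.21, edgeR adjusted p = 0.823), and its 95% interval ran from 55.5% to 99.6% of WT. The interval thus left out an unchanged level by little. The unadjusted p of that F test was under 0.05, as for 3.01% of all genes in this direction. Counts per gene hold no position of the reads, so whether a deleted part of Neu3 was without reads was not analysed here. Library by library, the gene-level count did not separate the genotypes. In Glb1KO, Neu3 was at 4.06 ± 0.622 CPM and in DKO at 2.98 ± 0.826 CPM (SD, n = 5 each).

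The other sialidases were bounded closely where they were well expressed. Per transcript length, as deposited FPKM (fragments scaled to transcript length and library size), the WT means were 12.3 for Neu1, 2.01 for Neu4, 1.37 for Neu2 and 1.14 for Neu3. Neu1 was at 46.2 ± 3.76 CPM in WT and 46.9 ± 2.3 in Neu3KO (SD, n = 5 each; exact permutation p = 0.738), and its 95% interval of 0.93 to 1.11-fold excluded a rise above 1.11-fold. Neu4 was at 9.39 ± 0.963 and 8.61 ± 0.711 CPM (exact permutation p = 0.175), with an interval of 0.75 to 1.13-fold. Neu2 was at 3.59 ± 1.18 and 3.10 ± 0.583 CPM (exact permutation p = 0.5), with an interval of 0.65 to 1.17-fold. None of these 3 differed beyond the spread between libraries, and a rise of 1.5-fold was outside the interval of each. Glb1 was at 20.2 ± 1.32 CPM in WT and 20.5 ± 1.34 in Neu3KO, inside 0.85 to 1.21-fold.

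**Figure D2:**
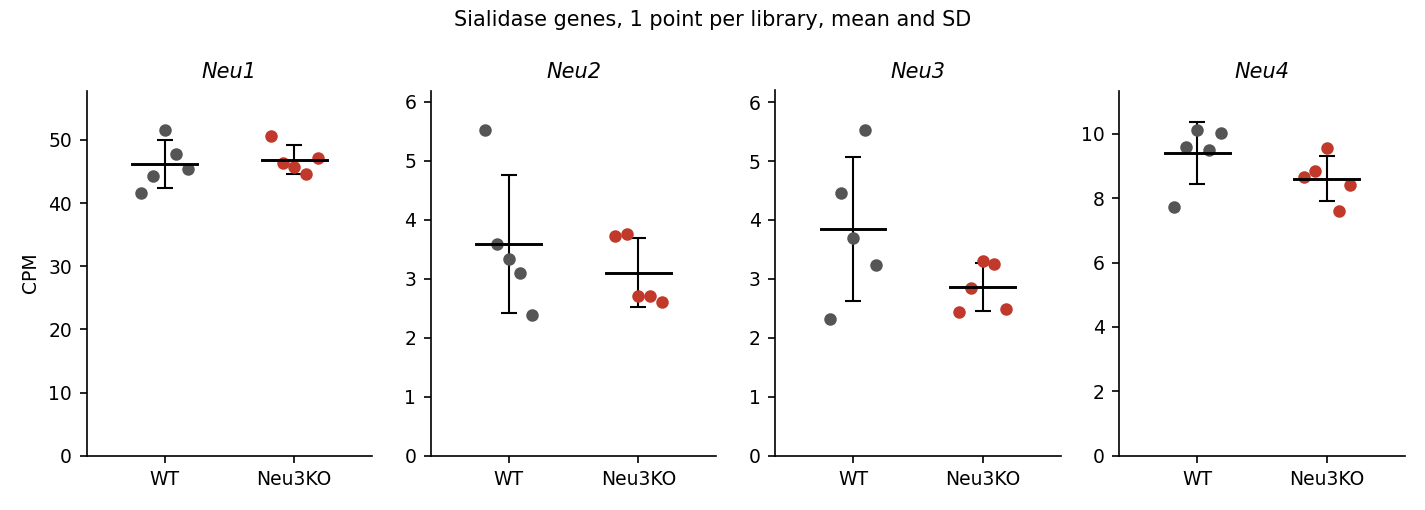
CPM of the 4 sialidase genes in the 5 WT and 5 Neu3KO libraries, with 1 point per library, the mean as a horizontal line and the SD as an error bar. For each gene the groups overlap, and Neu3 is at 2.32 to 5.53 CPM in WT and 2.45 to 3.30 CPM in Neu3KO.

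Genes of the ganglioside pathway were bounded inside 2-fold, as were nearly all genes above 10 CPM. Of 18 genes that build gangliosides and galactolipids, 18 lay inside 1.5-fold, with a median log2 fold change of -0.02. Inside 1.5-fold lay 71.3% of all genes, but 98.7% of those from 10 to 100 CPM and 99.4% of those over 100 CPM. St8sia5, a sialyltransferase that adds sialic acid to gangliosides, was at 61.8 to 66.0 CPM in WT and 48.6 to 61.8 in Neu3KO, with a log2 fold change of -0.22 (95% interval -0.39 to -0.05, edgeR adjusted p = 0.767). The groups met at 61.8 CPM without crossing. Of 20 genes that break down gangliosides and related sphingolipids, Neu3 and the other sialidases included, 20 lay inside 2-fold and 17 inside 1.5-fold. Over all genes the shares were 87.5% and 71.3%.

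Among the genes that make and attach sialic acid, 2 were higher without overlap between groups, as were 96 of all genes tested (0.524%), and neither was called in the fit with the filter on low counts. Nans, the synthase of the sialic acid precursor, was at 8.11 to 12.5 CPM in WT and 12.7 to 15.9 in Neu3KO (log2 0.35, interval 0.13 to 0.58, edgeR adjusted p = 0.689). St6gal2, which attaches sialic acid to glycoproteins, was at 33.1, 31.7, 30.3, 31.0 and 25.2 CPM in WT and 35.5, 37.8, 38.6, 35.9 and 44.3 in Neu3KO (log2 0.34, SE 0.08, edgeR adjusted p = 0.56, and 0.0258 without the filter on low counts). All 5 Neu3KO libraries were thus above the highest WT library, replicate 1. In DKO, which is also labelled as lacking Neu3, St6gal2 was at 26.9 to 35.2 CPM, with a mean of 30.8 CPM against 30.2 CPM in WT. In Glb1KO it was at 28.3 to 34.2 CPM. Growth factor receptors and integrin beta 1, with which NEU3 has been linked at the membrane in cultured cells, all lay inside 1.5-fold (15 of 15). Of all genes 71.3% did, and of those from 10 to 100 CPM 98.7% did. Of the 15 estimates, 14 were under 0 (50.1% of all genes were). The smallest p among them was that of Fgfr1, a receptor for fibroblast growth factors, at 131 ± 5.55 CPM in WT and 114 ± 4.76 in Neu3KO (SD, n = 5 each), with no overlap (log2 -0.20, SE 0.05, edgeR adjusted p = 0.56).

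Plcxd2, which codes for a protein with a phospholipase C-type X domain, had the smallest p of all genes. It was at 183, 226, 206, 222 and 223 CPM in WT replicates 1 to 5 and at 169, 159, 154, 177 and 168 CPM in Neu3KO. Each Neu3KO library was below the lowest WT library, which was replicate 1, and such separation in the lower direction was found for 121 genes (0.66%). The log2 fold change was -0.36 (SE 0.07, 95% interval -0.50 to -0.22), or 0.78-fold, with an edgeR adjusted p = 0.116. Its adjusted p was 0.017 with DESeq2, 0.0344 in a fit of the 10 libraries alone, 0.00666 without WT replicate 1 and 1.39e-05 in edgeR without the filter on low counts, so the call rested on the method, on the filter and on that library. When the identifier letter was added as a term, the log2 fold change was -0.23 (adjusted p = 0.676). In Glb1KO, where the labels name no loss of Neu3, Plcxd2 was at 166 to 181 CPM, a range like that of Neu3KO, and in DKO at 111 to 150 CPM. The comparisons of Neu3KO and Glb1KO with WT share the WT libraries.

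Napb, the beta form of the SNAP adaptor that helps to disassemble SNARE complexes after vesicle fusion, was the higher gene with the smallest p. It was at 403, 457, 376, 407 and 372 CPM in WT and at 468, 474, 450, 490 and 544 CPM in Neu3KO. The groups overlapped through WT replicate 2 alone, at 457 CPM, and without that library the edgeR adjusted p was 0.0158. With all libraries the log2 fold change was 0.27 (SE 0.05, interval 0.16 to 0.38, edgeR adjusted p = 0.203), DESeq2 gave an adjusted p of 0.0313 and edgeR without the filter on low counts 0.00211. Napb was at 495 to 518 CPM in Glb1KO and 468 to 540 CPM in DKO, so each group of knockouts was above the highest WT library except for Neu3KO replicate 3.

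The remaining higher genes with the smallest p were of several kinds, and none was called in the edgeR fit with the filter on low counts. Without that filter edgeR called Pamr1 (adjusted p = 0.00812), Trem2 and Rorb (0.0225 each). Trem2, a lipid receptor of microglia, was at 7.79, 7.62, 7.68, 7.90 and 7.02 CPM in WT and at 10.3, 13.4, 10.6, 8.75 and 8.71 CPM in Neu3KO. The Neu3KO libraries were all higher, and replicate 2 highest, with a log2 fold change of 0.45 (SE 0.11, interval 0.23 to 0.68, edgeR adjusted p = 0.56). In Glb1KO Trem2 was at 17.2 to 25.8 CPM and in DKO at 50.9 to 59.6 CPM. In bulk samples, more cells of a type and more RNA per cell cannot be told apart. Pamr1, a secreted protein with a protease-like domain, had a log2 fold change of 0.43 (0.20 without the 3 Neu3KO libraries low in hindbrain markers), the sulphate and anion transporter Slc26a11 of 0.56, the cytoskeletal linker Gas2l3 of 0.76, the GABA-A receptor subunit Gabra4 of 0.21 and the cortical layer IV transcription factor Rorb of 0.33. Of these, Slc26a11 and Gabra4 did not overlap between groups.

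Among the lower genes, Exd1 had the largest estimate of the 8 with the smallest p. Exd1, known from the piRNA pathway of the germ line, was at 2.26, 2.18, 2.86, 1.95 and 2.04 CPM in WT and at 0.882, 1.35, 1.83, 0.475 and 0.891 CPM in Neu3KO. All Neu3KO libraries were lower, and replicates 2 and 3 were closer to WT than the others. Its log2 fold change was -1.04 (SE 0.25, interval -1.56 to -0.53, edgeR adjusted p = 0.56). In DKO, which is also labelled as lacking Neu3, Exd1 was at 1.86 to 2.68 CPM, in the range of WT, and the change with Neu3 loss differed between the presence and absence of Glb1 (interaction 1.23 on the log2 scale, edgeR adjusted p = 0.0247). Vwa7 (-0.61), the transporter-like Slc10a7 (-0.57), Rgl3 (-0.47) and the insulin receptor substrate Irs2 (-0.28) were also lower in estimate, and Vwa7 and Slc10a7 did not overlap. Without the filter on low counts edgeR called Irs2 (adjusted p = 0.0116), Rgl3 (0.0389) and Vwa7 (0.0424).

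Ndn, an imprinted gene that codes for the neuronal growth suppressor necdin (chromosome 7, from 62346569 to 62350262), had the largest estimate among the named genes above 100 CPM. It was at 247, 291, 292, 284 and 289 CPM in WT and at 188, 148, 154, 157 and 129 CPM in Neu3KO. Every Neu3KO library was below every WT library, with Neu3KO replicate 1 and WT replicate 1 the closest. The log2 fold change was -0.85 (SE 0.20, interval -1.28 to -0.43), but the edgeR adjusted p was 0.581 with all 20 libraries and 1.01e-05 with the 10 alone. Ndn varied within the other genotypes, which share the estimate of spread: it was at 297, 280, 162, 129 and 150 CPM in Glb1KO and at 260, 173, 239, 230 and 230 CPM in DKO. Levels below those of WT thus occurred in libraries not labelled as Neu3 knockouts, and 4 DKO libraries were above the highest Neu3KO library. Other genes of that imprinted cluster, chosen after their values were seen, were at log2 0.03 for Snrpn and -0.19 for Magel2.

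**Figure D3:**
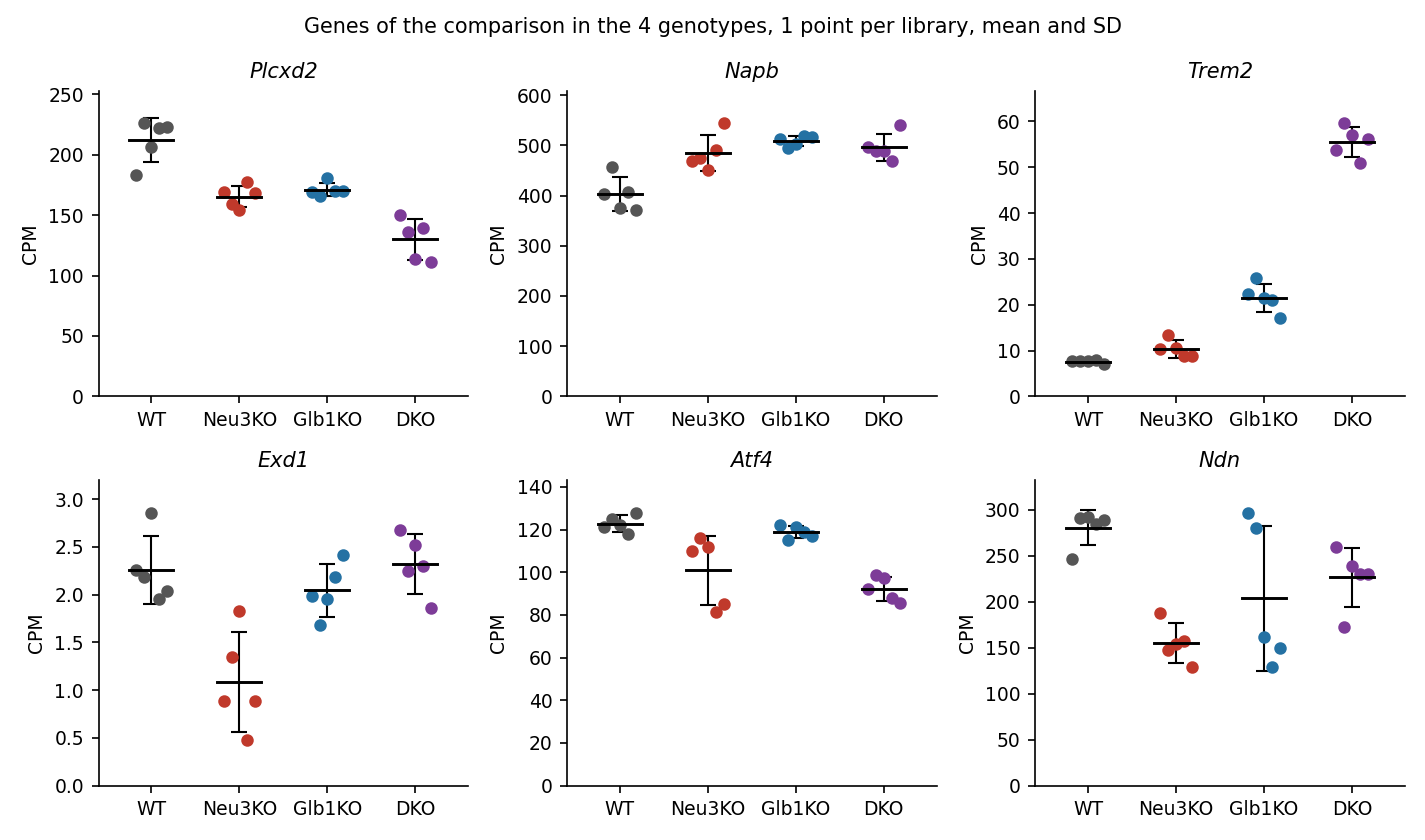
CPM of 6 genes in the 4 genotypes, with 1 point per library, the mean as a horizontal line and the SD as an error bar. Plcxd2 is at 154 to 177 CPM in Neu3KO and 166 to 181 CPM in Glb1KO, Exd1 is at 0.475 to 1.83 CPM in Neu3KO, and Ndn spreads from 129 to 297 CPM in Glb1KO.

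Immediate early genes, which neurons transcribe within minutes of activity, were lower in estimate throughout. All 14 had estimates under 0 (50.1% of all genes did), with a median of -0.35 against -0.00018 over all genes. An unadjusted p under 0.05 was found for 5 (3.01% of all genes in this direction), and 0 were called in the fit of all 20 libraries. The 5 were Fosb (-0.55), Egr1 (-0.35), Egr4 (-0.44), Egr2 (-0.67) and Nr4a1 (-0.42), all transcription factors, and 12 of the 14 lay inside 2-fold. Among libraries with E identifiers, where Neu3KO had 1 library, Egr1 was at -0.035. The level of the list, its mean log2 CPM less the WT mean, was 0.13, 0.01, 0.16, -0.10 and -0.21 in WT and -0.23, -0.37, -0.21, -0.60 and -0.45 in Neu3KO. The 5 Neu3KO libraries were all below the lowest WT library, replicate 5, though 2 of them by little. How the animals were handled was not given.

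Of these, Egr4, Nr4a1 and Egr2 did not overlap between the groups (0.66% of all genes in this direction). The 250 bases before the starts of Egr4 and Nr4a1 in RefSeq's GRCm38.p6 table are shown because both hold copies of CGTCA, the core of the cAMP response element, in capitals. They are chr6:85513590-85513839 on the minus strand for Egr4 and chr15:101266596-101266845 on the plus strand for Nr4a1.
Egr4: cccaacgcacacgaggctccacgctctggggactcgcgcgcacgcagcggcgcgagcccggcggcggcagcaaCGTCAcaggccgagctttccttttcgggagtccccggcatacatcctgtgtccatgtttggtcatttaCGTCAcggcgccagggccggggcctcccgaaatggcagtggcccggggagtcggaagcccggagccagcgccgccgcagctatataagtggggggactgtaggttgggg
Nr4a1: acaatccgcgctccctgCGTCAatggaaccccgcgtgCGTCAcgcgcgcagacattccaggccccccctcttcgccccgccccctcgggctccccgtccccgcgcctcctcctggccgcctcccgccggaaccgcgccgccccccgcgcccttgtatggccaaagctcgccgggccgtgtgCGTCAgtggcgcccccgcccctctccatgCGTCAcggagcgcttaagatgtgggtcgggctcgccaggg
CGTCA occurred 2 times before Egr4, 4 times before Nr4a1 and 0 times in the first listed promoter of Egr2. On either strand it was found in 17.8% of the 32851 promoters of the same length and in 9 of 10 immediate early genes with a listed promoter, while 4 or more copies were found in 0.137% of all promoters. These matches are letters in a window and not measured sites.

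Egr4 was at 86.6, 64.7, 77.8, 67.3 and 60.0 CPM in WT and at 53.6, 59.3, 58.7, 39.5 and 51.5 CPM in Neu3KO. The highest Neu3KO library was just under the lowest WT library, and the log2 fold change was -0.44 (SE 0.17, interval -0.80 to -0.08, edgeR adjusted p = 0.767). Nr4a1 was at 159, 150, 160, 132 and 136 CPM in WT and at 118, 99.4, 126, 96.5 and 110 CPM in Neu3KO. Here too every Neu3KO library was below every WT library, and the log2 fold change was -0.42 (SE 0.19, interval -0.83 to -0.01, edgeR adjusted p = 0.823). In the edgeR fit of the 10 libraries alone Nr4a1 was called, with an adjusted p of 0.0499. In Glb1KO, where the labels name no loss of Neu3, the means were also below those of WT. Egr4 was at 35.8 to 61 CPM there, with a mean of 52.1 against 52.5 in Neu3KO and 71.3 in WT. Nr4a1 was at 61.6 to 138 CPM, with a mean of 102 against 110 in Neu3KO and 147 in WT. Both Glb1KO ranges reached into that of WT. DKO against Glb1KO shares no library with Neu3KO against WT. There the same 2 genes were at -0.81 and -0.90 and were called (edgeR adjusted p = 0.00422 and 0.00441). The difference between the comparisons did not pass (interaction adjusted p = 0.484 and 0.397).

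The unfolded protein and integrated stress response list was lower in estimate for 20 of 25 genes (50.1% of all genes were), with a median of -0.12. Its 3 genes with an unadjusted p under 0.05 (3.01% of all genes in this direction) were the transcription factors Atf4, Atf3 and Atf5, none of them called with the filter on low counts. Atf4, the main effector of the integrated stress response, was at 121, 125, 122, 118 and 128 CPM in WT and at 110, 116, 112, 81.2 and 85.2 CPM in Neu3KO. Neu3KO replicates 4 and 5 were far below the rest, while replicates 1 to 3 lay just under the lowest WT library. The log2 fold change was -0.28 (SE 0.07, interval -0.42 to -0.14, edgeR adjusted p = 0.56), and without the filter the adjusted p was 0.0205. When the identifier letter was added as a term, the median of the list was 0.0059 and Atf4 was at -0.19, so the direction of the list was lost there. Of 18 circadian clock genes, 3 had an unadjusted p under 0.05 and were lower in estimate, among them Per2 (-0.31, no overlap) and Bhlhe40 (-0.22), and the time of day of collection was not given. Without the filter on low counts the edgeR adjusted p of Per2 was 0.0361, and among E libraries Bhlhe40 was at -0.022.

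Complement genes were slightly higher in estimate, less so without WT replicate 1. Of 13 complement genes tested, 11 were above 0 (49.9% of all genes were), 4 had an unadjusted p under 0.05 (3.02% of all genes did in this direction) and 0 were called with the filter on low counts. C1qa, C1qb and C1qc, the chains of the first complement component, had log2 fold changes of 0.19, 0.26 and 0.35, and the upper ends of their 95% intervals were 1.27-, 1.41- and 1.48-fold. Without the filter the edgeR adjusted p of C1qc was 0.0108. The median of the list was 0.19, and 0.09 without WT replicate 1, which had the lowest level of the list. Of 23 genes of disease-associated microglia, 6 were higher and 1 lower at an unadjusted p under 0.05, with a median of 0.06 that was 0.011 without WT replicate 1. Among the 6 higher were Trem2 and the secreted lectin ligand Lgals3bp (0.31, interval 0.10 to 0.52). Of all 23 estimates, 15 were above 0 and 8 under 0. Of 13 genes of homeostatic microglia, 10 were above 0 and 3 under 0, and 0 were called. Their median was larger, at 0.17, and was 0.09 without WT replicate 1. At an unadjusted p under 0.05, 1 of these 13 was higher (3.02% of all genes in this direction). Mrc1, a mannose receptor of macrophages at the brain's borders, was at 2.14 ± 0.567 CPM in WT and 3.2 ± 0.521 in Neu3KO (log2 0.57, edgeR adjusted p = 0.706).

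Abundant markers of glia were bounded near 1. The lipid carrier Apoe was at 942 to 1269 CPM in WT and 1141 to 1350 in Neu3KO, with an interval of 0.92 to 1.17-fold, and the lysosomal protease Ctsb had an interval of 0.96 to 1.1-fold. Gfap, the intermediate filament of astrocytes, was at 160 to 220 CPM in WT and 158 to 212 in Neu3KO, with an interval of 0.79 to 1.14-fold. Of 19 reactive astrocyte genes, 12 had estimates above 0 and 7 under 0, with a median of 0.06. Cd44 (log2 0.40) and Aspg (0.33) were the 2 with an unadjusted p under 0.05 (3.02% of all genes in this direction). Only 13 of the 19 lay inside 2-fold, against 87.5% of all genes. Of 44 lysosomal genes tested, 43 lay inside 1.5-fold (71.3% of all genes did), and the remaining gene, with the highest estimate of the list (2.02), had no interval. At an unadjusted p under 0.05, 4 were higher (3.02% of all genes in this direction). The median of the list was 0.05, or 0.018 without WT replicate 1. The lysosomal proteases Ctss and Ctsl were at 0.23 and 0.17, with upper ends of 1.34- and 1.24-fold.

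Neurons, myelin and metabolism were likewise bounded. All 19 genes of myelin and mature oligodendrocytes, all 21 synaptic genes, all 14 pan-neuronal genes and all 15 autophagy genes lay inside 1.5-fold, and 0 were called. Inside that bound lay 71.3% of all genes, 98.7% of those from 10 to 100 CPM and 99.4% of those over 100 CPM. In the myelin list Myrf, the transcription factor that drives myelin genes, was at -0.22 (interval -0.37 to -0.08) with an edgeR adjusted p = 0.689. The median of the myelin list was -0.06 and turned to 0.13 with the identifier letter as a term and to 0.03 without the 3 Neu3KO libraries low in hindbrain markers. Of 24 cholesterol synthesis genes, 22 were above 0 (49.9% of all genes were), with a median of 0.10, and 2 had an unadjusted p under 0.05 (3.02% of all genes in this direction), Hsd17b7 (0.30) and Insig1 (0.22, but 0.012 among E libraries). The 13 protein-coding genes of the mitochondrial genome had a median of 0.22, which was 0.08 without WT replicate 1, and mt-Nd5 was at 0.36, with 2016 CPM in that library and 3464 to 5246 CPM in the others.

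**Figure D4:**
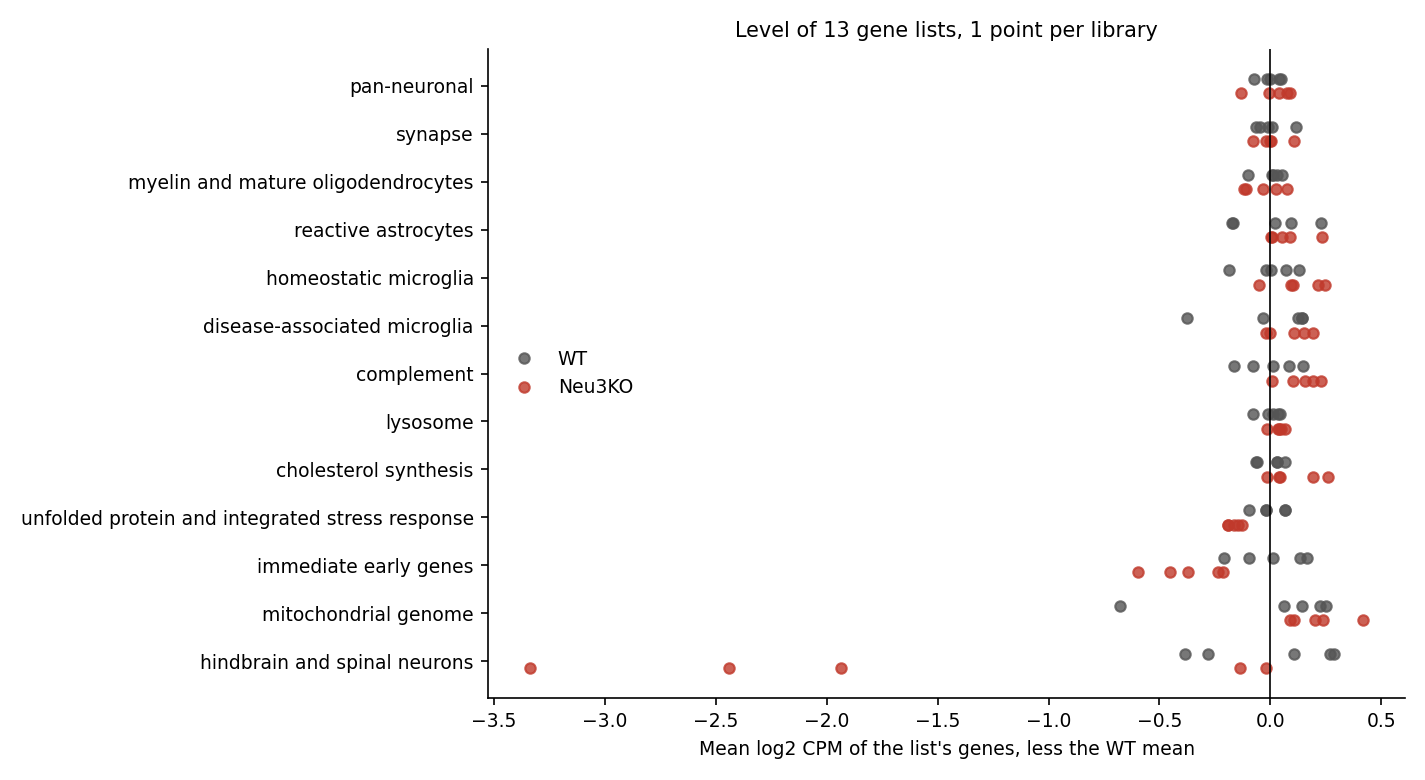
Mean log2 CPM of the genes of 13 lists, less the WT mean, with 1 point per library for WT (grey) and Neu3KO (red). Neurons, synapse, myelin and lysosome stay close to the WT mean, the 5 Neu3KO libraries lie below WT for the immediate early genes, WT replicate 1 is low for the mitochondrial genome, and 3 Neu3KO libraries are far below the rest for hindbrain and spinal neurons.

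Some libraries differed in markers of brain regions. Of 12 hindbrain and spinal markers, 7 were tested, and all 7 were under 0, with a median of -0.93. The level of the list was -0.28, 0.11, 0.29, -0.38 and 0.27 in WT and -0.02, -1.93, -3.34, -0.14 and -2.44 in Neu3KO. Neu3KO replicates 2, 3 and 5 were thus low for this list and replicates 1 and 4 in the range of WT. Slc6a5, the glycine transporter of hindbrain and spinal inhibitory neurons, showed this at 48.6, 19.0, 8.31, 51.2 and 19.97 CPM in Neu3KO against 41.8 to 68.5 CPM in WT (edgeR adjusted p = 0.823). Without those 3 libraries the median of the list was -0.04, the median of the immediate early list was -0.45, 0 genes were called and 14524 genes lay inside 2-fold. Prl, the prolactin gene of the pituitary, was at 68.5 CPM in Neu3KO replicate 2 and at 0 to 1.42 CPM in the other 9 libraries, and its estimate was under 0 without that library. Estimates were also under 0 for 7 of 7 olfactory bulb and 12 of 13 cerebellar genes, and above 0 for 9 of 9 striatal genes. With the filter on low counts 0 of them were called. Without it edgeR called the cerebellar gene Zic1 (log2 -0.29, adjusted p = 0.0358). Neu3KO replicate 1 was at -0.80 for the olfactory bulb list (WT -0.24 to 0.51) and -0.31 for the cerebellar list (WT -0.16 to 0.09). Leaving out the 3 hindbrain-low libraries thus did not even out all regions.

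Genes around Neu3 were set apart, since a knockout can carry the flanking chromosome of the strain in which it was made. Within 20 Mb of Neu3 on chromosome 7, 343 genes were tested and 0 were called, with 12 (3.5%) at an unadjusted p under 0.05, against 6.03% of all genes. Their median log2 fold change was 0.01, and 300 (87.5%) lay inside 2-fold. The nearest tested genes were Spcs2, a signal peptidase subunit 9.2 kb from Neu3 (log2 -0.03, interval -0.14 to 0.09), and the organic anion transporter Slco2b1 on the other side (0.05, interval -0.16 to 0.26). The smallest p in the window belonged to the cytokine gene Il16 (-0.36, edgeR adjusted p = 0.677, and 0.0441 without the filter on low counts), and Numa1, a mitotic spindle protein, was at -0.15.

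The bounds can be read against the loss of Neu3 in the absence of Glb1, that is DKO against Glb1KO, which shares no library with Neu3KO against WT. There 2879 genes (15.7%) were called. For 2594 of them (90.1%) the change lay outside the 95% interval of the same gene in Neu3KO against WT, and 0 of them were called in Neu3KO. A test of the difference itself, which also counts the error of the first change, passed for 1179 of them (41%) and for 1255 genes in all (6.84%). The latter count was 183 among E libraries and 701 without the 3 Neu3KO libraries low in hindbrain markers. Of the 417 genes that changed at least 2-fold in DKO against Glb1KO, 389 (93.3%) had that change outside the interval, and 257 passed the test of the difference. The 1542 higher genes had a median log2 fold change of 0.55 there and of 0.02 in Neu3KO against WT. The 2879, 417 and 1542 genes were picked for their change in DKO against Glb1KO, which is 1 side of each of these comparisons. Their shares and medians therefore overstate the difference, while the count of 1255 was taken over all genes tested.

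Named genes show the same side by side. Gfap was at 3.10 in DKO against Glb1KO and at -0.07 in Neu3KO against WT (interaction 3.17 on the log2 scale, edgeR adjusted p = 1.85e-09). C1qa was at 1.41 and 0.19 (interaction adjusted p = 2.97e-10), Apoe at 1.03 and 0.06 (4.17e-06) and Trem2 at 1.36 and 0.45 (4.82e-05), all by edgeR's quasi-likelihood test. For these 4 genes a change of the size seen without Glb1 was above the upper end of the interval with Glb1. Plcxd2 did not follow them: it was at -0.39 and -0.36, with an interaction of -0.03 (edgeR adjusted p = 0.907). The identifier letters were unevenly spread here too, with 901 genes called in DKO against Glb1KO among libraries starting with E and 1203 with the letter as a term.

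**Figure D5:**
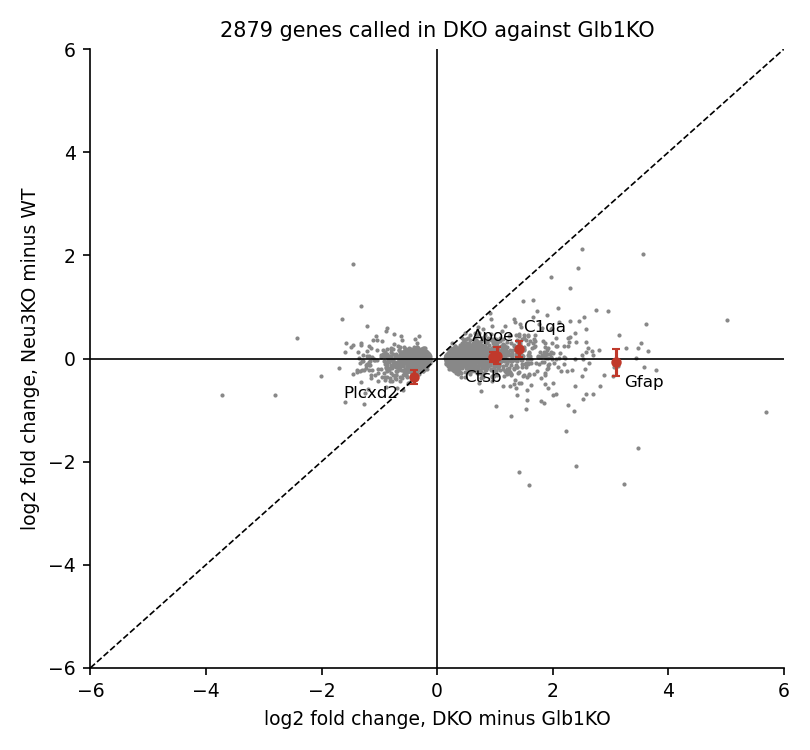
Log2 fold change with Neu3 loss where Glb1 is present (Neu3KO minus WT, vertical) against that where Glb1 is absent (DKO minus Glb1KO, horizontal), for the 2879 genes called in the latter, with the diagonal dashed. Red points with 95% intervals mark 5 genes: Gfap, C1qa, Apoe and Ctsb lie near 0 on the vertical axis, and Plcxd2 lies near the diagonal.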

How the data were processed

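RNA of 20 brain hemispheres was sequenced, of which 10 libraries (5 WT, 5 Neu3KO) are compared here. For every library the authors deposited whole-number counts of reads per gene, not normalized, and FPKM values, per the file headers. Genome builds mm10 and GRCm38 are named in the submitters' processing notes. Of tools the notes list featureCounts 1.5.0-p3 and DESeq2 1.20.0, as well as HISAT2 2.0.5 and fastp, without roles, strand setting or filters, so reads of near-identical copies, overlapping genes and antisense partners could be split or lost. FPKM served to compare sialidase levels per length and as an alternative scale for the level of Neu3.

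From the counts, 18336 of 54532 genes were kept by filterByExpr and tested with edgeR 4.0.16 in R 4.3.3: TMM factors, a mean per genotype over all 20 libraries and robust quasi-likelihood F tests, two-sided, with Benjamini-Hochberg adjustment at 0.05. CPM values are TMM-scaled. Intervals of 95% were the coefficient with its quasi-likelihood SE and the t distribution of the fit; 3 genes without reads in a group have none. Totals of 15162311 to 25145806 reads per library limit the precision of low genes. Single values were compared with exact permutation tests over 252 arrangements. No pair of libraries looked like 1 library deposited as 2 (chi-square per gene 3.44 to 30.3). The interaction was DKO minus Glb1KO less Neu3KO minus WT.

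The libraries, the 48 gene lists and the rule for named genes were chosen with earlier results of these data known. The rule took the sialidases and Glb1, the 8 higher and 8 lower protein-coding genes with the smallest p at 1 CPM or more and over 20 Mb from Neu3, up to 10 genes called in each alternative fit, up to 3 smallest-p and 2 most abundant genes per list, and the nearest and up to 6 smallest-p genes within 20 Mb of Neu3. Alternatives were other scaling factors and filters, DESeq2 1.42.0, limma-voom (limma 3.58.1), a 1.2-fold minimum, fits without robustness, of the 10 libraries alone, with the replicate number or identifier letter as a term, of E libraries only, without genes near Neu3 and without each library in turn. The authors' own table of DKO against WT was not used. Some genes are not reported here.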

Additional observations from a re-analysis of the deposited data

Results flagged for a closer look

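Dixon's gap test at 95% was applied to the 5 libraries of each group for 18 list levels and 12 genes, 60 groups in all, and marked 3, where chance marks about 1 in 20. The mitochondrial genome list in WT had replicate 1 at -0.68 with the next library at 0.06 (gap ratio 0.796). Ndn in WT had replicate 1 at 247 CPM with the next at 284 CPM (gap ratio 0.827). The list of ganglioside and galactolipid synthesis in WT had replicate 3 at 0.08 with the next at -0.0091 (gap ratio 0.78). The response to Neu3 loss differed between the absence and presence of Glb1 in 1255 genes by edgeR's interaction test, among them Gfap, C1qa, Apoe, Trem2 and Exd1.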

How the results depend on the processing

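No gene was called between Neu3KO and WT with other scaling factors, at least 1 CPM in 5 libraries, no robustness, a 1.2-fold minimum, without genes near Neu3, with limma-voom, with the identifier letter as a term, without the 3 libraries low in hindbrain genes (chosen after seeing the data) and without any single library except WT replicate 1 or 2. Calls were 26 without the filter on low counts, where 36698 genes were tested (Plcxd2, Napb, Pamr1, C1qc, Irs2, Atf4, Rorb, Trem2 and St6gal2 among them), 3 in the fit of the 10 libraries alone (Ndn, Plcxd2, Nr4a1), 2 with DESeq2 and 1 among E libraries (Bpifa1), where Neu3KO had 1 library assumed to vary like the other groups. Leaving out 1 library gave 0 to 1 calls. The numbers did not pair the libraries: deviations of same-numbered libraries correlated at -0.0329 to 0.0353, and with the replicate block 0 genes were called, 15947 lay inside 2-fold, 13022 inside 1.5-fold and 1136 passed the interaction. Over the alternatives 13478 to 16082 genes lay inside 2-fold. Changes in DKO against Glb1KO outside the interval numbered 1145 with the letter term and 845 among E libraries, and interaction calls were 183 among E libraries and 701 without the hindbrain-low libraries. The cause was not tested.

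Of 57 named genes besides Neu3, 49 kept their direction in each alternative. Signs turned for Neu1 over single libraries left out (-0.0076 to 0.070), Neu2 with the letter term (0.028) and among E libraries (0.055) and over single libraries left out (-0.31 to 0.017), Neu4 with the letter term (0.085), Glb1 with the letter term (-0.18), among E libraries (-0.087) and over single libraries left out (-0.0094 to 0.057), Prl among E libraries (-1.9), over single libraries left out (-0.30 to 5.79) and without the hindbrain-low libraries (-2.57), Apoe with the letter term (-0.058), over single libraries left out (-0.011 to 0.086) and without the hindbrain-low libraries (-0.011), Gfap with the letter term (0.038) and among E libraries (0.13), and Spcs2 with the letter term (0.023). Neu3 kept its direction in each alternative.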
